A study of Mus musculus with 11 samples.

Results

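The skin and the small intestine of mice that received only vehicle cream were compared, using every vehicle library of the series and no treated one. These are 6 of its 11 libraries, 3 of skin (replicates 1 to 3) and 3 of small intestine (replicates 7 to 9), chosen by tissue and treatment label. All mice were BALB/c with no mutation labelled, female or male according to the labels, and 8 to 10 weeks old when Vaseline was applied to shaved skin once a day. The dose is labelled as 62.5 mg a day for 5 to 8 days on the back and right ear, and the methods name the back alone. The source of the skin piece, the segment of small intestine, the layers it held and the tissues that came from the same mouse are not stated. Nothing states that replicates are separate mice, so the p-values below measure the spread between these samples, which may be technical. The comparison gives the gene levels of both tissues without imiquimod, against which the imiquimod response of the study was measured.

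Skin and small intestine are both barriers, built in different ways. The epidermis is a stratified epithelium in which basal cells anchored to the basement membrane divide, move outward, replace one set of keratins by another and finally flatten into cornified cells sealed by crosslinked proteins and lipids. Hair follicles, sebaceous glands and pigment cells sit in it, and a collagen-rich dermis, fat and a thin sheet of skeletal muscle lie beneath. The small intestine is lined by a single-layered absorptive epithelium with a brush border of digestive enzymes and transporters. Goblet cells, Paneth cells and hormone-secreting cells are set among the enterocytes, and the lamina propria below holds many IgA-secreting plasma cells and lymphocytes.

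The vehicle libraries held between 45681955 and 58526384 counts, and mitochondrial genes took 4.23% to 5.84% of them in skin and 6.79% to 8.45% in small intestine. Skin replicate 2 stood apart from the other skin libraries in several ways. Of 169 genes with a mean of at least 50 FPKM (fragments per kilobase of transcript and per set number of mapped fragments) in small intestine and under 0.1% of that FPKM in skin replicates 1 and 3, replicate 2 held a median of 0.709% of the intestinal level in normalized counts (quartiles 0.545% and 1.004%), and 166 of them had at least 1 count there. The replicates 1 and 3 held a median of 0%, and 126 and 119 of the 169 genes had no count in them, by construction of the set. The same search run on each library in turn found 6 such genes for skin replicate 1 and 6 for skin replicate 3. Those searches required a low level in replicate 2 as well, so its intestinal RNA limited how many genes they could find. For skin-restricted genes, the medians were 0%, 0% and 0.00663% in small intestine replicates 7, 8 and 9. Of 12 markers of exocrine pancreas, which lies against the gut, 11 were too low to test, and *Cela1*, which other tissues also express, was at 0.539, 0.57 and 0.665 FPKM in skin and 3.01, 1.82 and 2.19 FPKM in small intestine. The coefficient of biological variation was 0.343 in skin, 0.207 in skin without replicate 2 and 0.225 in small intestine. Where leaving out skin replicate 2 moved a fold change by more than 1.5 times, the value without it is given beside the value with all libraries, as a lower bound where skin replicates 1 and 3 had no count.

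**Figure D1:**
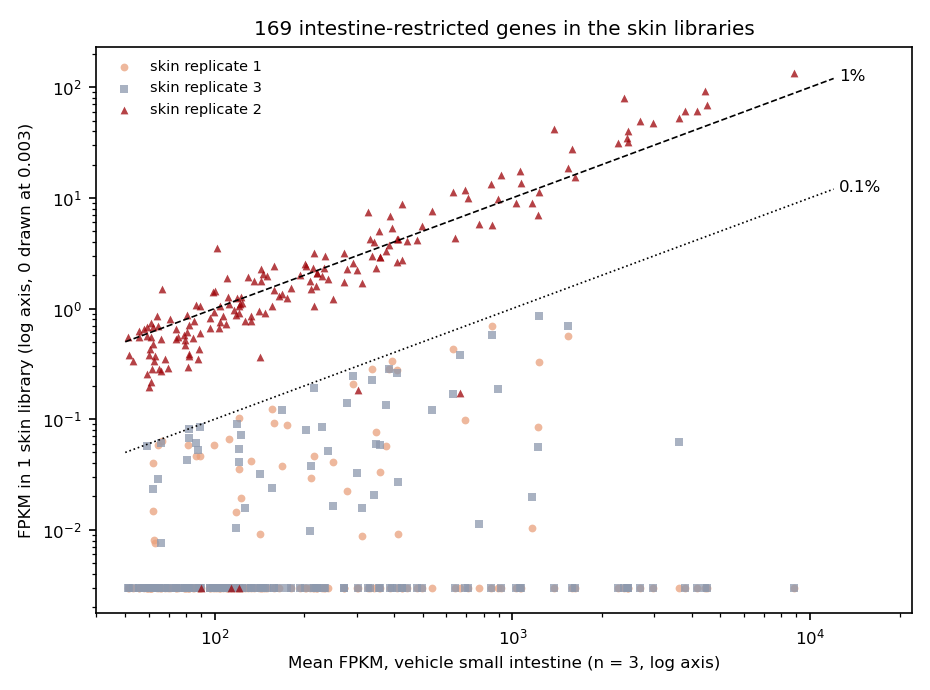
FPKM of the 169 intestine-restricted genes in each skin library (vertical log axis, 0 drawn at 0.003) against their mean FPKM in the 3 vehicle small intestine libraries (horizontal log axis). Skin replicate 2 (dark red triangles) lies along the dashed line that marks 1% of the intestinal level, while replicates 1 and 3 lie mostly at 0 or under the dotted line of 0.1%, the limit that chose the genes.

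The tissues differed in most genes. Of 19888 genes tested, 11550 (58.1%) passed edgeR's quasi-likelihood test at a Benjamini-Hochberg adjusted p under 0.05, 5813 (29.2%) higher in skin and 5737 (28.8%) higher in small intestine. The normalized counts of the tissues did not overlap for 13491 genes (67.8%). At 16-fold or more, 1418 called genes were higher in skin, where they took 11.2% to 16.5% of the counts of a library against 0.0992% to 0.113% in small intestine. In the other direction 1253 called genes took 20.01% to 21.01% of the counts in small intestine, 0.225% and 0.199% in skin replicates 1 and 3 and 0.436% in skin replicate 2. A level of at least 1 FPKM in all 3 libraries was reached by 13727 genes in skin, 12571 in small intestine and 11385 in both. Without skin replicate 2, 12103 of 20618 genes tested (58.7%) were called, 6091 (29.5%) higher in skin and 6012 (29.2%) higher in small intestine, and 10860 of the 11550 calls were kept. The split depends on scaling: with library size alone, 8946 genes were called higher in skin and 3875 higher in small intestine, and the median log2 fold change of all genes was 0.50 in place of 0.03. Fold changes below are skin over small intestine on the log2 scale of normalized counts, with the SE after ±, and levels are FPKM in the order of replicates 1, 2 and 3 for skin and 7, 8 and 9 for small intestine.

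**Figure D2:**
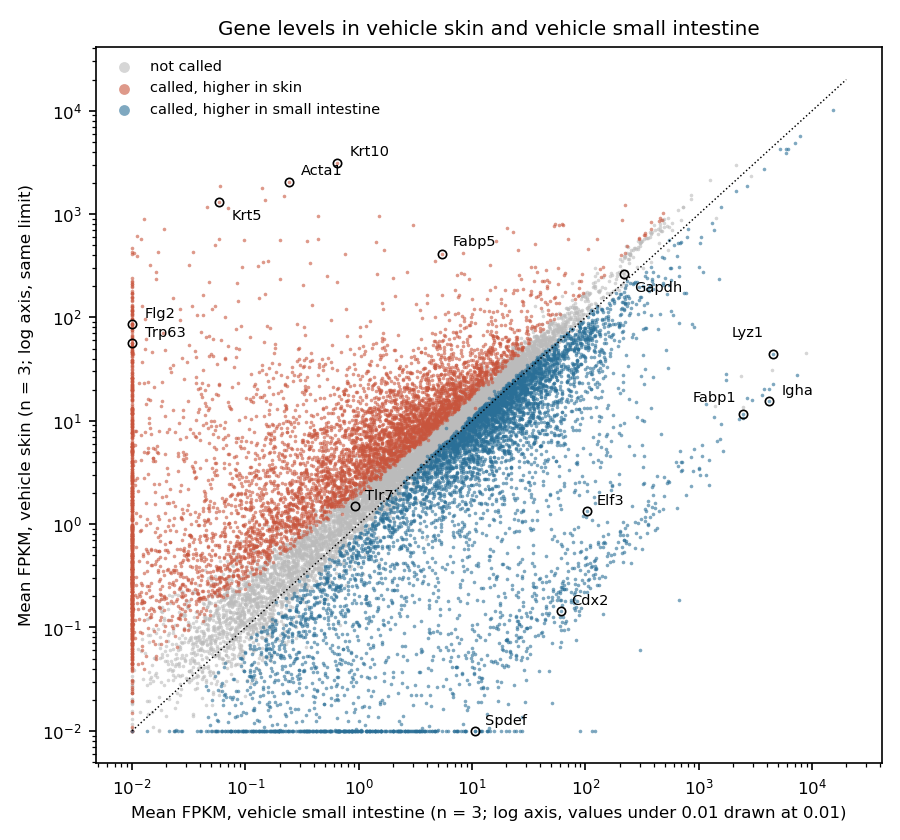
Mean FPKM in vehicle skin against mean FPKM in vehicle small intestine for the 19888 genes tested (log axes, n = 3 libraries each, values under 0.01 drawn at 0.01). Red points were called higher in skin, blue points higher in small intestine and grey points were not called. The lower right band that includes *Fabp1* and *Igha* holds abundant intestinal genes whose mean in skin comes mostly from replicate 2.

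The genes with the highest levels among those at least 4-fold higher in skin were *Krt10*, *Acta1*, *Krt1*, *Krtdap*, *Lgals7*, *Krt14*, *Krt5*, *Calm4*, *Car3* and *Scd1*. They belong to keratinocytes apart from *Acta1*, a muscle actin, *Car3*, a carbonic anhydrase of muscle and fat, and *Scd1*, a desaturase of sebaceous gland and fat. In small intestine, the called genes with the highest levels at 4-fold or more were *Igkc*, *Lyz1*, *Defa17*, *Igha*, *Defa30*, *Defa3*, *Apoa1*, *Defa31*, *Defa35* and *Pla2g2a*, which are immunoglobulin chains, Paneth cell products and an apolipoprotein. *Defa24*, at 9633, 9019 and 7884 FPKM in small intestine, and *Fabp2*, described below, would also have been among the 10, and both were called without skin replicate 2 but not with all libraries. Reads of the defensin genes may be divided among near-identical copies. *Krt10*, the partner of *Krt1* in differentiating keratinocytes, was at 3897, 4051 and 1467 FPKM in skin and 0.754, 0.506 and 0.661 FPKM in small intestine (log2 fold change 11.61 ± 0.69, edgeR adjusted p = 4.1e-05). *Igha*, the constant region of IgA, was at 4.15, 35.7 and 6.55 FPKM in skin and 6145, 3243 and 3073 FPKM in small intestine (log2 fold change -8.47 ± 1.19, edgeR adjusted p = 0.00097, and log2 fold change -10.13 without skin replicate 2). Neither gene had overlapping groups, and each of the skin libraries had more *Krt10* than all intestinal libraries together.

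**Figure D3:**
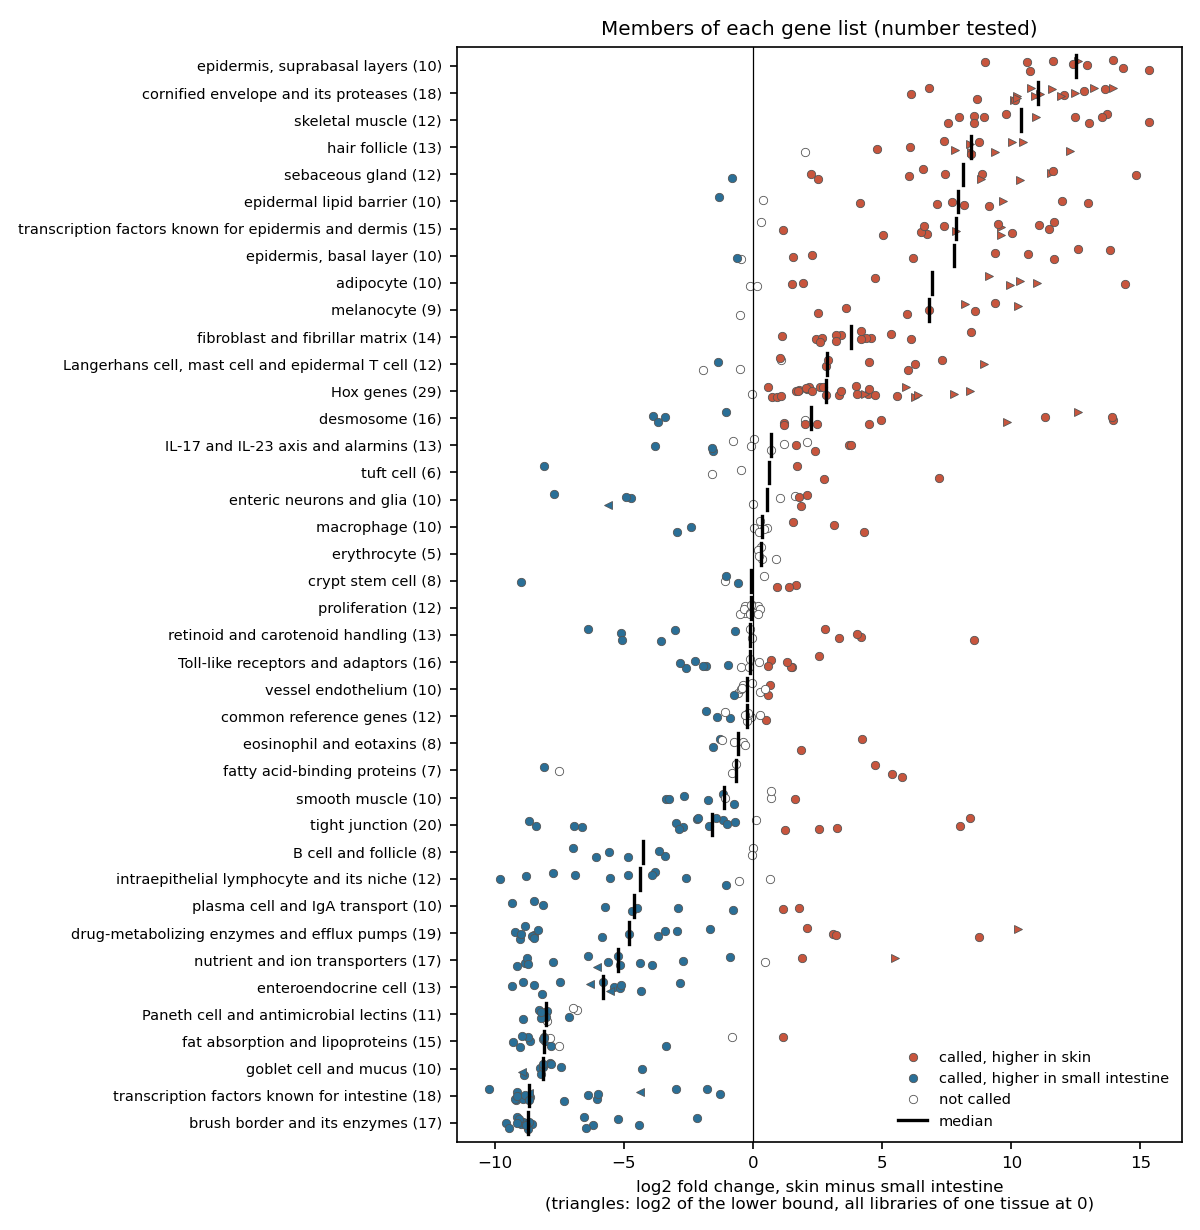
log2 fold change of skin over small intestine (horizontal axis) of each tested member of the gene lists, 1 point a gene, with the number tested in brackets and a bar at the median. Red points were called higher in skin, blue points higher in small intestine and open points were not called. Triangles give the log2 of the lower bound for genes with no count in one tissue. Epidermal, hair, sebaceous and skeletal muscle lists lie to the right, brush border, intestinal transcription factor, goblet and fat absorption lists to the left, and proliferation and endothelial lists around 0.

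Genes of the epidermis were among the most skin-restricted of all. Of 10 genes of the basal layer, 8 were called higher in skin and 1 higher in small intestine, with a median log2 fold change of 7.77 against 0.03 over all genes tested. *Krt5*, the type II keratin of basal cells, was at 1419, 1368 and 1158 FPKM in skin and 0, 0 and 0.175 FPKM in small intestine (log2 fold change 13.83 ± 1.78, edgeR adjusted p = 0.00067). *Trp63*, a transcription factor that basal keratinocytes depend on, was at 61.2, 50.02 and 57.2 FPKM in skin and 0, 0 and 0.0269 FPKM in small intestine (log2 fold change 11.64 ± 0.81, edgeR adjusted p = 6.3e-05). All 3 skin libraries were high for both genes and the intestinal libraries were at or near 0. The basal adhesion genes divided: *Col17a1*, a hemidesmosome collagen of the skin, was at 77.5, 118 and 51.7 FPKM in skin and 0.0953, 0.115 and 0.0661 FPKM in small intestine (log2 fold change 9.35 ± 0.52, edgeR adjusted p = 3.4e-05). Its hemidesmosome partner *Itgb4*, which simple epithelia also use, was at 19.1, 20.8 and 15.7 FPKM in skin and 20.1, 23.8 and 19.2 FPKM in small intestine (log2 fold change -0.62 ± 0.17, edgeR adjusted p = 0.019), so its normalized counts were higher in small intestine although its FPKM overlapped, and it was not called with library size alone as scale. For *Itga6*, the integrin chain paired with it, the levels were 24.7, 27.6 and 20.9 FPKM in skin and 18.5, 25.2 and 30.4 FPKM in small intestine (log2 fold change -0.47 ± 0.24, edgeR adjusted p = 0.15). In bulk tissue, fewer cells of a type and less RNA per cell cannot be told apart, here and for every gene below.

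All 10 suprabasal genes and all 18 genes of the cornified envelope and its proteases were called higher in skin, with median log2 fold changes of 12.67 and 15.03. With genes that had no intestinal count set to their lower bound, the medians were 12.49 and 11.02, and 11 of the 18 envelope genes had no count in any small intestine library. *Hrnr*, a filaggrin-like protein of the granular layer, was at 108, 173 and 26.9 FPKM in skin and 0 in the intestinal libraries, which makes it at least 15707-fold higher in skin when each intestinal library is set to 3 counts. *Flg2* was at 87.1, 144 and 27.3 FPKM in skin and at least 9432-fold higher by the same bound. Skin replicate 3 was the lowest skin library for both genes. The same held for *Krt1*, *Krtdap* and *Spink5*, a protease inhibitor that restrains shedding of cornified cells, at 93.3, 131 and 24.5 FPKM. *Casp14*, a protease of cornification, varied less, at 119.8, 80.6 and 87.99 FPKM in skin and 0 in small intestine. Many of these genes are neighbours: of 38 tested genes that start between chr3:92000001-93000000 (mm10), the epidermal differentiation complex with the Lce, Sprr, *Lor* and *Ivl* genes, 33 were called at least 16-fold higher in skin.

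The promoters of *Krtdap*, a small secreted keratinocyte protein, and of *Lor* and *Ivl*, which encode the envelope proteins loricrin and involucrin, are shown because all 3 hold the AP-1 letters that long-studied epidermal promoters contain. They are RefSeq windows of GRCm38.p6 from 250 bases before to 50 bases after the annotated start, with the matches to TGANTCA in capitals.
*Krtdap* (chr7:30787655-30787954, plus strand): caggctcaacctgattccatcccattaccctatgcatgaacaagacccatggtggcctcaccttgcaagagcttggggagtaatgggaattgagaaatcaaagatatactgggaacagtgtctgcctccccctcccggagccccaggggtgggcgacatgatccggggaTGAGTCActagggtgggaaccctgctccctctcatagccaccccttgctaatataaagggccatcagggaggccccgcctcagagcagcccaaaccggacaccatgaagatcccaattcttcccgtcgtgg
*Lor* (chr3:92083093-92083392, minus strand): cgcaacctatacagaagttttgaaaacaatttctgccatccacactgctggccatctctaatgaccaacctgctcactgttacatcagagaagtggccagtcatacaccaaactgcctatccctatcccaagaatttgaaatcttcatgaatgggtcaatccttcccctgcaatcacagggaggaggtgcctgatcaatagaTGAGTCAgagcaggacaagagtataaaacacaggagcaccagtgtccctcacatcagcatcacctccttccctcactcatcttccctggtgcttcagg
*Ivl* (chr3:92573686-92573985, minus strand): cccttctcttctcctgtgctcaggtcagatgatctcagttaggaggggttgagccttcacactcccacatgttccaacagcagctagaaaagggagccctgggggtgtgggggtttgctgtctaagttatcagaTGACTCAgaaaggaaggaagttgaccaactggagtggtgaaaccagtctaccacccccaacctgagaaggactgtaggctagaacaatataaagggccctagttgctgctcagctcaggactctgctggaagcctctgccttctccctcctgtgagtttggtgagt
The match begins 81, 48 and 116 bases before the start in these windows. The letters TATAAA begin 30, 27 and 29 bases before it. Among the 32823 promoter windows of genes in the table, 7.81% held TGANTCA on either strand, and 6.155% of 18230 windows of genes tested. The share was 12.53% of 1261 windows of genes called at least 16-fold higher in skin, 9.54% of 996 windows of genes called at least 16-fold higher in small intestine, and 3.29% of 1368 windows of genes whose 95% confidence interval lay within 0.5 of no change. TATAAA, searched on both strands, was held by 13.6% of all windows, 16.4% and 18.4% of the skin and intestinal windows and 6.21% of the windows of genes at similar levels. The AP-2 letters GCCNNNGGC were less frequent in skin windows (16.5%) than in the windows of genes at similar levels (23.2%), which were richer in G and C (median 61.7% against 52.7%). A match of letters is a description of the window and not a binding site.

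Of 10 genes of the epidermal lipid barrier, 8 were called higher in skin and 1 higher in small intestine (median log2 fold change 7.95). *Elovl4*, which makes the very long fatty acids of skin ceramides, was at 664, 628 and 395 FPKM in skin and 0.0621, 0.114 and 0.116 FPKM in small intestine (log2 fold change 11.98 ± 0.51, edgeR adjusted p = 2.2e-05). *Alox12b*, the lipoxygenase that oxidises those ceramides, had 28.7, 36.3 and 9.55 FPKM in skin and no count in small intestine. *Ugcg*, the glucosylceramide synthase that both epithelia use, was higher in small intestine, at 21.1, 25.6 and 15.3 FPKM in skin and 22.9, 39.4 and 50.8 FPKM in small intestine (log2 fold change -1.32 ± 0.36, edgeR adjusted p = 0.017).

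Genes of skin appendages followed the tissue but not evenly among the skin libraries. Of 23 hair follicle genes in the table, 13 passed the filter on low counts and 12 of these were called, all higher in skin. *Krt71*, a keratin of the inner root sheath, was at 182, 0.16 and 331 FPKM in skin and 0 in small intestine, and *Krt25*, another root sheath keratin, was at 168, 0.077 and 292 FPKM and failed the filter. Skin replicates 1 and 3 were high and replicate 2 was near 0. The summed level of the list was 743, 12.4 and 1190.0 FPKM in skin and 0.564, 0.589 and 0.54 FPKM in small intestine. Without skin replicate 2, all 23 genes were tested and all 23 called higher in skin. *Shh*, a signal of growing follicles, was at 7.03, 0.112 and 9.71 FPKM in skin and 0.0994, 0 and 0.0593 FPKM in small intestine (log2 fold change 6.09 ± 1.61, edgeR adjusted p = 0.016), and the groups overlapped, with replicate 2 among the intestinal libraries.

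All 12 sebaceous gland genes were called, 11 higher in skin (median log2 fold change 8.15). *Scd1* was at 939, 1383 and 567 FPKM in skin and 0.953, 1.17 and 2.43 FPKM in small intestine (log2 fold change 8.85 ± 0.73, edgeR adjusted p = 0.00011). *Elovl3*, a fatty acid elongase of sebocytes, was at 149, 118 and 77.6 FPKM in skin and 0 in small intestine, at least 3003-fold higher in skin. *Mgst1*, a glutathione transferase that is active in many epithelia, went the other way at 208.3, 251 and 195 FPKM in skin and 205, 336 and 311 FPKM in small intestine (log2 fold change -0.83 ± 0.25, edgeR adjusted p = 0.024), a call that library size alone as scale did not give. Replicate 3 was the lowest skin library for all 12 genes. Of 10 melanocyte genes, 9 were tested and 8 were called higher in skin, and *Dct*, a melanin enzyme, was at 58.8, 15.6 and 108 FPKM in skin and 0.0854, 0.0702 and 0.0264 FPKM in small intestine (log2 fold change 9.35 ± 0.91, edgeR adjusted p = 0.00021). Replicate 2 was the lowest skin library for *Dct*, *Tyrp1*, *Pmel* and *Tyr*. *Kit*, which melanocytes share with mast cells and with the pacemaker cells of the gut wall, was at 4.14, 3.21 and 6.11 FPKM in skin and 4.18, 5.87 and 3.895 FPKM in small intestine (log2 fold change -0.52 ± 0.23, edgeR adjusted p = 0.089).

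The tissue under the epithelium also differed. All 14 fibroblast and matrix genes were called higher in skin (median log2 fold change 3.79, range 1.12 to 8.45). *Col1a1*, the main fibrillar collagen chain, was at 354, 299 and 997 FPKM in skin and 17.97, 15.8 and 14.9 FPKM in small intestine (log2 fold change 4.59 ± 0.53, edgeR adjusted p = 0.00043). *Twist2*, a transcription factor of dermal fibroblasts, was at 14.1, 8.17 and 24.2 FPKM in skin and 0.225, 0.0913 and 0.137 FPKM in small intestine (log2 fold change 6.12 ± 0.53, edgeR adjusted p = 0.00013). Skin replicate 3 had the most collagen RNA, and no intestinal library reached the lowest skin library. Of 10 adipocyte genes, 8 were called higher in skin, and 7 without skin replicate 2, where *Cidec*, a lipid droplet protein, was not. *Adipoq*, the fat hormone adiponectin, was at 93.6, 183 and 69.99 FPKM in skin and 0 in small intestine, at least 2023-fold higher in skin. The lipases *Lipe* and *Pnpla2*, which are not confined to fat cells, had log2 fold changes of -0.10 and 0.16 (edgeR adjusted p = 0.76 and 0.54).

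All 12 skeletal muscle genes were called higher in skin (median log2 fold change 11.15). *Acta1*, skeletal muscle actin, reached 1724, 2307 and 2131 FPKM in skin and 0.212, 0.251 and 0.258 FPKM in small intestine (log2 fold change 12.48 ± 0.41, edgeR adjusted p = 1.8e-05), the second highest mean of the genes called at least 4-fold higher in skin. *Myh1*, a fast myosin heavy chain, was at 339, 644 and 319.5 FPKM in skin and 0, 0 and 0.02 FPKM in small intestine (log2 fold change 15.33 ± 1.42, edgeR adjusted p = 0.00017). All 3 skin libraries held this muscle RNA, and replicate 2 had the most for each of the 12 genes. Smooth muscle leaned in the other direction: of 10 genes, 6 were called higher in small intestine and 1, *Des*, higher in skin. The shares over all genes tested were 28.8% and 29.2%. *Actg2*, the actin of visceral smooth muscle, was at 8.66, 10.8 and 17.01 FPKM in skin and 60.9, 108 and 105 FPKM in small intestine (log2 fold change -3.38 ± 0.33, edgeR adjusted p = 0.00021). *Des*, an intermediate filament of both muscle types, was at 181, 204 and 197 FPKM in skin and 35.99, 54.1 and 46.5 FPKM in small intestine (log2 fold change 1.64 ± 0.21, edgeR adjusted p = 0.0006). With library size alone as scale, 4 of the 10 smooth muscle genes were called higher in small intestine and 3 higher in skin. Without skin replicate 2, the counts were 6 and 2.

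Of 10 genes of enteric neurons and glia, 4 were called higher in small intestine and 3 higher in skin. The shares over all genes tested were 28.8% and 29.2%. *Vip*, the neuropeptide of enteric secretomotor neurons, was at 0, 0.309 and 0 FPKM in skin and 13.5, 19.1 and 16.9 FPKM in small intestine (log2 fold change -7.72 ± 1.13, edgeR adjusted p = 0.0012, and at least 712-fold higher in small intestine without skin replicate 2). Among the members higher in skin were *S100b*, which Schwann cells of any nerve express, and *Nos1*, which skeletal muscle also uses. Of the endothelial genes, 2 of 10 were called higher in skin (*Cdh5* and *Tek*), 1 higher in small intestine (*Flt4*), and the median log2 fold change was -0.23. *Pecam1*, the adhesion molecule of vessel endothelium, was at 14.6, 18.6 and 16.4 FPKM in skin and 11.2, 9.98 and 8.66 FPKM in small intestine (log2 fold change 0.27 ± 0.17, edgeR adjusted p = 0.22). With library size alone as scale, 4 endothelial genes were called higher in skin and 0 higher in small intestine, and without skin replicate 2 the counts were 0 and 2. Of 5 erythrocyte genes tested, 0 were called by edgeR and 0 had an unadjusted p under 0.05. *Hba-a1* was at 32.5, 62.9 and 59.6 FPKM in skin and 48.1, 20.98 and 18.8 FPKM in small intestine, and the groups overlapped.

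Genes of the absorptive epithelium were high in small intestine. All 17 brush border genes were called higher there, with a median log2 fold change of -8.71 with all libraries and -13.50 without skin replicate 2, or -12.56 with the genes that then had no skin count at their lower bound. *Vil1*, the actin bundler of microvilli, was at 0, 5.79 and 0.0112 FPKM in skin and 708, 709 and 903 FPKM in small intestine (log2 fold change -9.0 ± 2.71, edgeR adjusted p = 0.026, and log2 fold change -16.92 without skin replicate 2). *Sis*, the sucrase-isomaltase that splits sucrose and starch fragments, was at 0, 4.29 and 0 FPKM in skin and 505, 640 and 775 FPKM in small intestine (log2 fold change -9.16 ± 3.02, edgeR adjusted p = 0.036). Replicate 2 carried all the *Sis* of the skin group, and without it *Sis* was at least 107336-fold higher in small intestine with each remaining skin library set to 3 counts. *Anpep*, an aminopeptidase that dermal and immune cells also make, was present in every library at 20.3, 36.4 and 17.5 FPKM in skin and 1650.2, 1778 and 1745 FPKM in small intestine (log2 fold change -6.56 ± 0.49, edgeR adjusted p = 8e-05). Without replicate 2 the log2 fold change of *Anpep* was -7.04.

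Of 17 transporter genes, 14 were called higher in small intestine and 2 higher in skin. *Slc5a1*, the sodium-glucose cotransporter, was at 5.97, 13.5 and 2.72 FPKM in skin and 333, 464 and 589.7 FPKM in small intestine (log2 fold change -6.39 ± 0.77, edgeR adjusted p = 0.00051, and log2 fold change -7.26 without skin replicate 2). *Slc15a1*, which takes up small peptides, was at 6.06, 10.03 and 2.904 FPKM in skin and 101, 179.6 and 224 FPKM in small intestine (log2 fold change -5.16 ± 0.62, edgeR adjusted p = 0.0005, and log2 fold change -5.75 without skin replicate 2). *Slc10a2*, the bile acid transporter known from the ileum, was at 0 in skin and 0.278, 0.931 and 0.698 FPKM in small intestine, and *Fabp6*, the ileal bile acid-binding protein, was at 0.693, 1.81 and 0.652 FPKM in skin and 1.57, 1.496 and 1.02 FPKM in small intestine. The iron exporter *Slc40a1* was higher in skin at 17.2, 12.47 and 15.1 FPKM in skin and 2.95, 3.14 and 2.57 FPKM in small intestine (log2 fold change 1.91 ± 0.13, edgeR adjusted p = 6.2e-05). The calcium channel *Trpv6* was also higher in skin, at 1.25, 0.645 and 1.49 FPKM against no count in small intestine. *Cybrd1*, the iron reductase of the duodenum, was at 2.13, 1.34 and 3.35 FPKM in skin and 0.896, 1.501 and 1.17 FPKM in small intestine (log2 fold change 0.45 ± 0.32, edgeR adjusted p = 0.27).

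Genes of fat absorption reached the highest enterocyte levels. Of 15, 11 were called higher in small intestine and 1 higher in skin, and 14 and 1 without skin replicate 2. *Apoa1*, the main protein of high-density lipoprotein, was at 0, 52.96 and 0.0617 FPKM in skin and 3578, 3312 and 4008 FPKM in small intestine (log2 fold change -8.04 ± 2.89, edgeR adjusted p = 0.049, and log2 fold change -17.11 without skin replicate 2). *Fabp2*, the intestinal fatty acid-binding protein, was at 0, 92.9 and 0 FPKM in skin and 3171, 3718 and 6427 FPKM in small intestine (log2 fold change -7.53 ± 3.15, edgeR adjusted p = 0.079). *Fabp2* missed the threshold with all libraries; without replicate 2, edgeR gave an adjusted p of 2.8e-05 and *Fabp2* was at least 121488-fold higher in small intestine. The same applied to *Apoa4*, *Reg3b*, *Reg3g* and *Defa24*, with adjusted p of 0.069, 0.085, 0.065 and 0.061 by edgeR with all libraries and at most 8.9e-05 without replicate 2. Of the 169 intestine-restricted genes, these 5 were not called with all libraries and all 169 were called without replicate 2. The latter was largely set in advance, because these genes were chosen by their low level in skin replicates 1 and 3. The share that replicate 2 held of the intestinal level ran up to 2.66% for *Reg3b* and was 1.63% for *Fabp2*. *Cd36*, a fatty acid transporter that adipocytes and muscle also use, was higher in skin at 101, 132 and 77.4 FPKM in skin and 41.4, 25.3 and 33.4 FPKM in small intestine (log2 fold change 1.15 ± 0.30, edgeR adjusted p = 0.015).

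Secretory cells of the intestine were as distinct. All 10 goblet cell genes were called higher in small intestine (median log2 fold change -8.12, and -12.20 without skin replicate 2, or -10.87 with the genes that then had no skin count at their lower bound). *Zg16*, a lectin of the mucus, was at 0, 31.1 and 0 FPKM in skin and 2104, 2462 and 2237 FPKM in small intestine (log2 fold change -8.12 ± 2.77, edgeR adjusted p = 0.041, and at least 43389-fold higher in small intestine without skin replicate 2). *Muc2*, which forms the mucus gel, was at 0.122, 1.61 and 0.0643 FPKM in skin and 93.8, 149.9 and 86.9 FPKM in small intestine (log2 fold change -7.88 ± 1.5, edgeR adjusted p = 0.0037, and log2 fold change -10.69 without skin replicate 2). *Spdef*, a transcription factor of goblet cells, had no count in any skin library, replicate 2 included, and was at 9.803, 12.7 and 9.25 FPKM in small intestine, at least 489-fold higher there. Of 11 genes of Paneth cells and antimicrobial lectins, 8 were called higher in small intestine with all libraries and all 11 without skin replicate 2. *Lyz1*, the Paneth cell lysozyme, was at 29.9, 68.6 and 33.9 FPKM in skin and 4960.1, 4408 and 4209 FPKM in small intestine (log2 fold change -7.11 ± 0.55, edgeR adjusted p = 8.8e-05). *Reg3b* and *Reg3g*, lectins that act on bacteria, were highest in replicate 9 at 1203, 2526 and 3369.8 FPKM and 665, 1403 and 2059.9 FPKM.

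All 13 enteroendocrine genes were called higher in small intestine (median log2 fold change -7.48, and -9.95 without skin replicate 2, or -5.83 with the genes that then had no skin count at their lower bound). *Gip*, an incretin of the upper small intestine, was at 0, 0.663 and 0 FPKM in skin and 138, 104 and 69.5 FPKM in small intestine (log2 fold change -9.33 ± 1.09, edgeR adjusted p = 0.00044, and at least 1897-fold higher in small intestine without skin replicate 2). *Nts*, the neurotensin of the lower small intestine, was at 0, 0.591 and 0 FPKM in skin and 26.2, 27.4 and 22.3 FPKM in small intestine (log2 fold change -7.48 ± 1.20, edgeR adjusted p = 0.0018, and at least 837-fold higher in small intestine without skin replicate 2). Both genes were high in every intestinal library. Markers of tuft cells were mixed: of 8 genes, 6 were tested, 3 were called higher in skin and 1 higher in small intestine. The shares over all genes tested were 29.2% and 28.8%, and 6 genes are too few to give the list a direction. Its median log2 fold change was 0.62, and -0.09 without skin replicate 2. *Pou2f3*, which specifies tuft cells and is also made by suprabasal keratinocytes, was at 33.3, 38.3 and 21.5 FPKM in skin and 0.271, 0.092 and 0.0561 FPKM in small intestine (log2 fold change 7.20 ± 0.61, edgeR adjusted p = 0.00012). *Trpm5*, the taste cation channel of tuft cells, was at 0, 0.0198 and 0 FPKM in skin and 1.48, 0.71 and 2.23 FPKM in small intestine (log2 fold change -8.11 ± 1.02, edgeR adjusted p = 0.00061, and at least 185-fold higher in small intestine without skin replicate 2).

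Stem cell markers of the crypt divided equally, with 3 of 8 called higher in each tissue, and 4 in skin and 2 in small intestine with library size alone as scale. Over all genes tested, the shares called were 29.2% higher in skin and 28.8% higher in small intestine. *Olfm4*, a crypt base marker of the small intestine, was at 0, 2.24 and 0.0326 FPKM in skin and 336, 307 and 259.9 FPKM in small intestine (log2 fold change -9.0 ± 2.19, edgeR adjusted p = 0.011, and log2 fold change -14.44 without skin replicate 2). *Lgr5*, which marks stem cells of both the crypt and the hair follicle, was higher in skin at 9.14, 4.81 and 14.9 FPKM in skin and 2.17, 2.41 and 1.94 FPKM in small intestine (log2 fold change 1.65 ± 0.35, edgeR adjusted p = 0.0057). *Sox9*, used by the follicle and by Paneth cells, was at 15.7, 8.91 and 16.8 FPKM in skin and 4.28, 4.72 and 2.25 FPKM in small intestine (log2 fold change 1.40 ± 0.30, edgeR adjusted p = 0.0065). Replicate 2 was the lowest skin library for both *Lgr5* and *Sox9*. Of 12 proliferation genes, 0 were called by edgeR and 0 had an unadjusted p under 0.05, and the median log2 fold change was -0.09. *Mki67*, a marker of dividing cells, was at 34.3, 11.8 and 35.2 FPKM in skin and 15.5, 17.5 and 21.1 FPKM in small intestine (log2 fold change 0.08 ± 0.38, edgeR adjusted p = 0.87), with replicate 2 below and the other skin libraries above every intestinal library. The 12 genes were all lowest in replicate 2 within skin, and without it 3 were called higher in skin, namely *Ccnb1*, *Mcm2* and *Mcm5*.

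Transcription factors divided by tissue, with 1 of 33 not called. Of 15 factors known for epidermis and dermis, 14 were called higher in skin (median log2 fold change 9.48), and *Ovol1* was at 27.4, 23.4 and 19.4 FPKM in skin and 14.03, 14.1 and 13.9 FPKM in small intestine (log2 fold change 0.32 ± 0.16, edgeR adjusted p = 0.12). *Tfap2b*, an AP-2 factor, had 10, 7.98 and 12.2 FPKM in skin and no count in small intestine. *Gata3* was at 40.9, 34.7 and 36.98 FPKM in skin and 0.341, 0.236 and 0.275 FPKM in small intestine (log2 fold change 6.49 ± 0.20, edgeR adjusted p = 1.8e-05). Its relative *Gata4* showed the opposite pattern at 0, 0.247 and 0 FPKM in skin and 37.6, 36.5 and 34.4 FPKM in small intestine (log2 fold change -9.20 ± 1.30, edgeR adjusted p = 0.00098, and at least 3467-fold higher in small intestine without skin replicate 2). All 18 factors known for intestine were called higher in small intestine (median log2 fold change -8.74, and -11.62 without skin replicate 2, or -9.48 with the genes that then had no skin count at their lower bound). *Hnf4a*, a nuclear receptor that drives enterocyte genes, was at 0, 1.29 and 0 FPKM in skin and 151, 158 and 182 FPKM in small intestine (log2 fold change -8.93 ± 2.36, edgeR adjusted p = 0.015, and at least 20125-fold higher in small intestine without skin replicate 2). *Cdx2*, the homeobox factor that gives the gut epithelium its identity, was at 0, 0.434 and 0 FPKM in skin and 58.2, 66.2 and 56.8 FPKM in small intestine (log2 fold change -9.17 ± 1.32, edgeR adjusted p = 0.0011, and at least 3633-fold higher in small intestine without skin replicate 2). *Pdx1* had no count in any skin library. *Klf5* and *Vdr*, the vitamin D receptor, were present in both tissues and differed least of the 18, with log2 fold changes of -1.80 and -1.27 (edgeR adjusted p = 0.0022 and 0.0088).

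Promoters of 4 genes high in small intestine are shown because they hold the HNF4 letters CAAAGTCCA and belong to the lists above: *Muc13*, a membrane mucin, *Alpi*, the intestinal alkaline phosphatase, *Treh*, the trehalase of the brush border, and *Slc3a1*, a subunit of the cystine transporter. The windows are again from RefSeq (GRCm38.p6), 250 bases before to 50 bases after the start, with the match on either strand in capitals.
*Muc13* (chr16:33794239-33794538, plus strand): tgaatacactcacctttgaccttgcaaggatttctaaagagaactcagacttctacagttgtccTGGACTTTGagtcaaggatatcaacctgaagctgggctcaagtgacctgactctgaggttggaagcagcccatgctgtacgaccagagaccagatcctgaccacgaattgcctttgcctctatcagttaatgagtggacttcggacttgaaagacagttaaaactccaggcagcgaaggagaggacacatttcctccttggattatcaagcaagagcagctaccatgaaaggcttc
*Alpi* (chr1:87101557-87101856, minus strand): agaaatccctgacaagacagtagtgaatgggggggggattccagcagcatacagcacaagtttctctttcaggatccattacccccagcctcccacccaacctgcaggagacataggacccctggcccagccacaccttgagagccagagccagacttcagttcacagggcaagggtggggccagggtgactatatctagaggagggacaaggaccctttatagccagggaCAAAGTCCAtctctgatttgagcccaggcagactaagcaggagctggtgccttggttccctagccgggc
*Treh* (chr9:44672983-44673282, plus strand): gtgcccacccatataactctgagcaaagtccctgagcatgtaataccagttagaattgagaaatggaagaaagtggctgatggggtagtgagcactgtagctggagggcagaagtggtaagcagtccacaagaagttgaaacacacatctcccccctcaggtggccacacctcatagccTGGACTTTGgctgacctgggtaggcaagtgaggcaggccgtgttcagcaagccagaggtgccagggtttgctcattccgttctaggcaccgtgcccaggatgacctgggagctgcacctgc
*Slc3a1* (chr17:85028097-85028396, plus strand): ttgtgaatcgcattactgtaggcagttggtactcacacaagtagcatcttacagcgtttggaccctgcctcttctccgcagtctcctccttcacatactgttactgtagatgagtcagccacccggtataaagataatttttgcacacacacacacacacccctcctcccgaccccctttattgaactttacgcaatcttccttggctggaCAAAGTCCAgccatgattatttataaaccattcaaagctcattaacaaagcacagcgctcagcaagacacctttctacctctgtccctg
The match begins 186, 19, 71 and 39 bases before the start. These genes were at 1377, 913 and 1209.9 FPKM, 180.4, 158 and 243 FPKM, 137, 69.6 and 107 FPKM and 72.3, 85.9 and 119 FPKM in small intestine. Of the 32823 windows, 156 (0.475%) held CAAAGTCCA on either strand, as did 92 of 18230 windows (0.505%) of genes tested. The letters were in 29 of 996 windows (2.91%) of genes called at least 16-fold higher in small intestine, in 6 of 1261 windows (0.476%) of genes called at least 16-fold higher in skin, and in 2 of 1368 windows (0.146%) of genes at similar levels. The direct repeat CAAAGGTCA was in 1.51% of intestinal and 0.634% of skin windows. The CDX letters TTTATGG were in 2.61% of intestinal windows and 3.49% of skin windows, and the GATA letters AGATAA were in 14.7% and 13.7%, close to equal in both. The HNF1 letters, by contrast, were in 24 of 996 intestinal windows (2.41%) and in 3 of 1261 skin windows (0.238%). They were in 0.307% of windows of genes tested and in 0.146% of windows of genes at similar levels. HNF4 was therefore not the only motif more frequent in intestinal windows. A gene can have several windows, and the 996 and 1261 windows belong to 780 and 1010 genes.

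The Hox genes, which record position along the body axis, were mostly higher in skin throughout paralog groups 1 to 10. Those with no intestinal count lay mostly in groups 9 to 13. Of 39 Hox genes in the table, 29 were tested and 28 called, all higher in skin, with a median log2 fold change of 2.84 against 0.03 over all genes tested, and 28 were also called higher in skin with library size alone as scale. Within groups 1 to 8, 20 of 21 tested genes were called, and *Hoxa4*, the exception, was at 1.17, 0.891 and 1.21 FPKM in skin and 1.01, 0.996 and 0.448 FPKM in small intestine (log2 fold change -0.04 ± 0.34, edgeR adjusted p = 0.92). *Hoxb5* was at 3.05, 1.99 and 2.996 FPKM in skin and 1.25, 1.39 and 1.202 FPKM in small intestine (log2 fold change 0.58 ± 0.21, edgeR adjusted p = 0.046), the smallest called difference. *Hoxd8* was at 13.4, 11.2 and 19.7 FPKM in skin and 0.604, 0.791 and 0.562 FPKM in small intestine (log2 fold change 4.01 ± 0.24, edgeR adjusted p = 4.2e-05). Without skin replicate 2, *Hoxa2* was not called either. All 7 genes of groups 9 and 10 were called, and 5 of them, *Hoxa9*, *Hoxc9*, *Hoxa10*, *Hoxc10* and *Hoxd10*, had no count in any intestinal library. *Hoxa9* was at 5.501, 3.85 and 6.04 FPKM in skin, at least 222-fold higher. *Hoxd10* was at 0.743, 0.73 and 0.865 FPKM in skin, at least 20.05-fold higher. Of the 9 genes of groups 11 to 13, all had no count in small intestine. The 2 genes of group 12 and 3 of the 4 genes of group 13 had no count in skin either. In groups 11 to 13, 1 gene was abundant enough in skin to test. This was *Hoxc13*, which controls hair keratins, at 9.97, 2.63 and 18.1 FPKM, with replicate 2 the lowest.

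**Figure D4:**
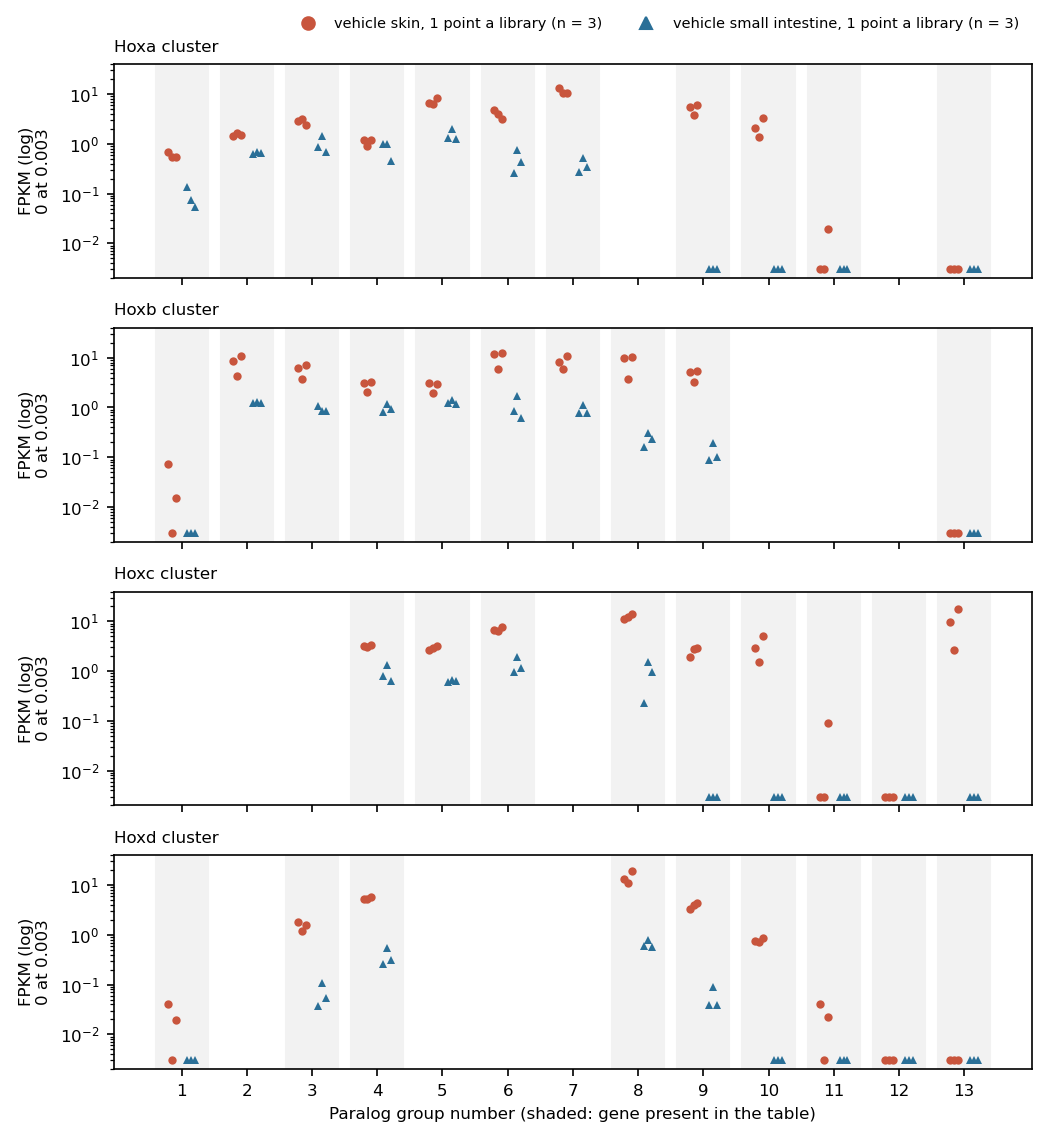
FPKM (log axis, 0 drawn at 0.003) of each Hox gene by cluster (panels) and paralog group (horizontal axis), 1 point a library, skin as circles and small intestine as triangles, n = 3 each. The intestinal points lie at 0 for *Hoxa9*, *Hoxc9* and every gene of groups 10 to 13, while skin has each gene of groups 9 and 10 and *Hoxc13*.

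Barrier gene families were used in part by both tissues, with different members in each. Of 20 tight junction genes tested, 14 were called higher in small intestine and 5 higher in skin, and 12 and 5 with library size alone as scale. *Cldn1*, the main claudin of the epidermis, was at 79.6, 99.2 and 57.03 FPKM in skin and 0.103, 0.192 and 0.199 FPKM in small intestine (log2 fold change 8.41 ± 0.42, edgeR adjusted p = 2.7e-05). *Cldn7* was at 0.149, 3.204 and 0.429 FPKM in skin and 336, 401 and 435 FPKM in small intestine (log2 fold change -8.66 ± 1.32, edgeR adjusted p = 0.0014, and log2 fold change -10.87 without skin replicate 2). *Cldn15*, a claudin that lets sodium pass, was at 2.62, 5.45 and 2.69 FPKM in skin and 343, 285 and 331 FPKM in small intestine (log2 fold change -6.92 ± 0.47, edgeR adjusted p = 5.9e-05). The levels of these 3 claudins did not overlap between tissues, and *Cldn5*, *Cldn8*, *Cldn10* and *Cldn11* joined *Cldn1* in skin while *Cldn2*, *Cldn3*, *Cldn12* and *Cldn23* joined *Cldn7* and *Cldn15* in small intestine. Which cells of each tissue made them, epithelial or other, was not tested. *Cldn4* was at 32.5, 33.6 and 21.5 FPKM in skin and 7.59, 9.43 and 39.9 FPKM in small intestine (log2 fold change 0.13 ± 0.66, edgeR adjusted p = 0.88), and the groups overlapped, with replicate 9 above the other intestinal libraries. *Ocln*, occludin, was at 6.48, 7.698 and 4.42 FPKM in skin and 31.6, 37.4 and 37.1 FPKM in small intestine (log2 fold change -2.99 ± 0.27, edgeR adjusted p = 0.00016). *Cldn18*, the stomach claudin, had no count in any library.

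Of 16 desmosome genes, 11 were called higher in skin and 4 higher in small intestine. The desmosomal cadherins, which join neighbouring cells, came from different paralogs: *Dsg1a*, *Dsg1b*, *Dsg3*, *Dsc1* and *Dsc3* were higher in skin, and *Dsg2* and *Dsc2* higher in small intestine. *Dsg3* was at 16.1, 19.3 and 11.96 FPKM in skin and 0 in small intestine. *Dsg2* was at 6.59, 5.48 and 6.603 FPKM in skin and 36.8, 51.1 and 53.4 FPKM in small intestine (log2 fold change -3.39 ± 0.19, edgeR adjusted p = 3.7e-05). The plakophilins, which link the cadherins to keratin, divided in the same way, with *Pkp1* at 190.3, 185 and 115 FPKM in skin and 5.99, 5.78 and 4.33 FPKM in small intestine (log2 fold change 4.48 ± 0.31, edgeR adjusted p = 6.2e-05). *Pkp2* was at 1.68, 1.58 and 1.998 FPKM in skin and 14.3, 17.3 and 17.2 FPKM in small intestine (log2 fold change -3.68 ± 0.15, edgeR adjusted p = 2.1e-05). *Dsp* and *Jup*, the plaque proteins desmoplakin and plakoglobin, were present in both and higher in skin, with log2 fold changes of 2.01 and 1.20 (edgeR adjusted p = 0.0025 and 0.0019).

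**Figure D5:**
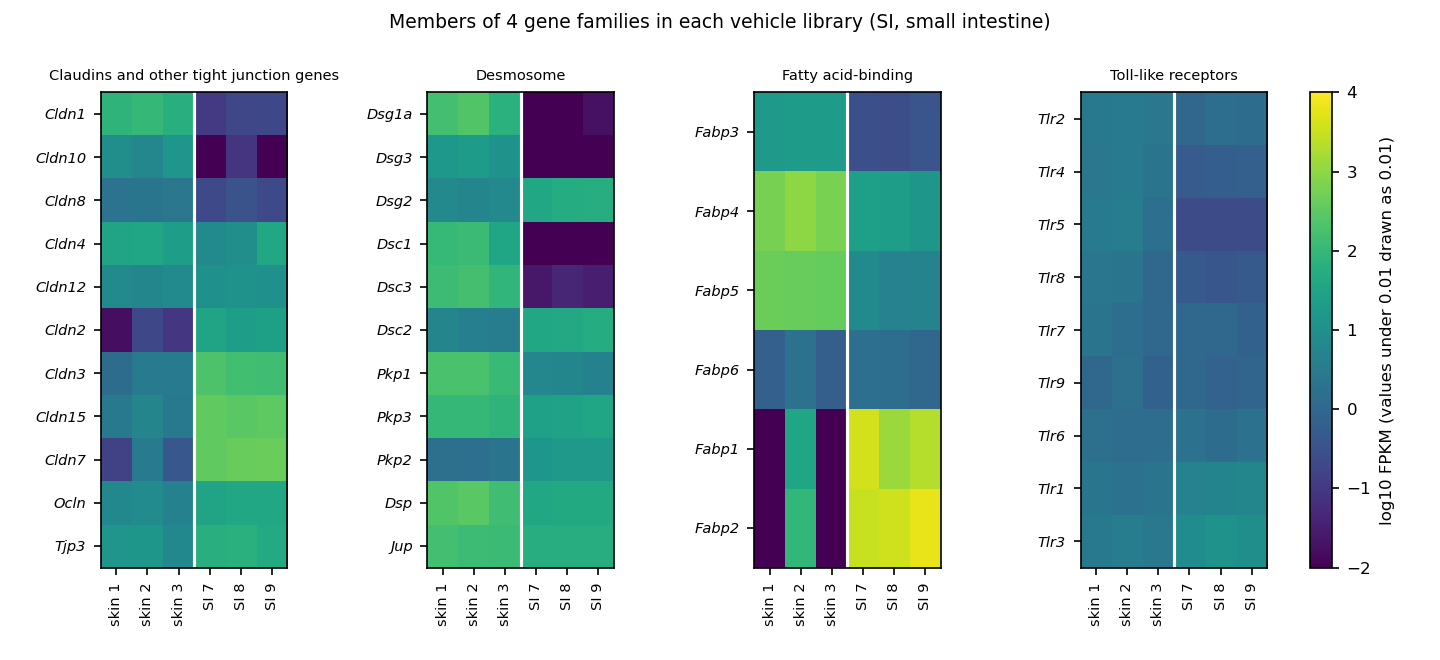
Level (colour, log10 FPKM, values under 0.01 drawn as 0.01) of members of 4 gene families in each of the 6 vehicle libraries, with a white line between skin and small intestine (SI). Claudins, desmosomal cadherins and fatty acid-binding proteins change member between the tissues, *Fabp1* and *Fabp2* appear in skin replicate 2 alone, and the Toll-like receptors span a narrower range of levels.

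The fatty acid-binding proteins, small carriers of lipids in the cytoplasm, were also divided by member. Of 9, 7 were tested, *Fabp3*, *Fabp4* and *Fabp5* were called higher in skin and *Fabp1* higher in small intestine, joined without skin replicate 2 by *Fabp2* and *Fabp6*. With all libraries, 29.2% of all genes tested were called higher in skin and 28.8% higher in small intestine. *Fabp5*, the epidermal form, was at 451, 397 and 381 FPKM in skin and 7.01, 4.58 and 4.75 FPKM in small intestine (log2 fold change 5.75 ± 0.26, edgeR adjusted p = 2.5e-05). *Fabp4*, the adipocyte form, was at 588, 981 and 615 FPKM in skin and 23.9, 22.2 and 14.99 FPKM in small intestine (log2 fold change 4.72 ± 0.35, edgeR adjusted p = 8e-05). *Fabp1*, shared by liver and intestine, was at 0, 34.6 and 0 FPKM in skin and 3809, 1282 and 2196 FPKM in small intestine (log2 fold change -8.09 ± 2.74, edgeR adjusted p = 0.04, and at least 35379.7-fold higher in small intestine without skin replicate 2). Of 13 retinoid genes tested, 5 were called higher in skin and 6 higher in small intestine, against 29.2% and 28.8% of all genes tested. *Crabp2*, which carries retinoic acid in skin, was at 45.1, 51.5 and 22.99 FPKM in skin and 0, 0.0737 and 0.125 FPKM in small intestine (log2 fold change 8.55 ± 0.71, edgeR adjusted p = 0.00012). *Rbp2*, which carries retinol in enterocytes, was at 25.2, 41.6 and 17.6 FPKM in skin and 2674, 978 and 1589 FPKM in small intestine (log2 fold change -6.41 ± 0.64, edgeR adjusted p = 0.00023). *Aldh1a2*, which makes retinoic acid, was at 0.545, 0.141 and 0.366 FPKM in skin and 9.76, 7.82 and 7.997 FPKM in small intestine (log2 fold change -5.06 ± 0.43, edgeR adjusted p = 0.00013), while *Cyp26b1*, which degrades it, was higher in skin at 14.02, 22.6 and 12.3 FPKM in skin and 1.85, 1.62 and 0.965 FPKM in small intestine (log2 fold change 3.34 ± 0.38, edgeR adjusted p = 0.00039).

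All 19 drug-metabolizing enzymes and efflux pumps were called, 14 higher in small intestine and 5 higher in skin. *Cyp3a11*, a broad-substrate cytochrome of gut and liver, was at 0, 1.55 and 0 FPKM in skin and 226, 102 and 211 FPKM in small intestine (log2 fold change -8.84 ± 2.05, edgeR adjusted p = 0.0089, and at least 10507-fold higher in small intestine without skin replicate 2). *Abcb1a*, the P-glycoprotein pump, was at 1.15, 2.02 and 0.85 FPKM in skin and 23.2, 33.7 and 26.6 FPKM in small intestine (log2 fold change -4.81 ± 0.41, edgeR adjusted p = 0.00013). The 5 members higher in skin were *Cyp1a1*, *Cyp1b1*, *Cyp2b19*, *Cyp2e1* and *Ces1d*. *Cyp2b19*, a keratinocyte enzyme, was at 34.7, 40.2 and 19.8 FPKM in skin and 0 in small intestine, at least 1215-fold higher. *Cyp1a1*, which ligands of the aryl hydrocarbon receptor induce, was at 15.7, 14.6 and 7.402 FPKM in skin and 2.45, 0.4001 and 0.324 FPKM in small intestine (log2 fold change 3.10 ± 0.83, edgeR adjusted p = 0.016), and replicate 7 was the highest intestinal library.

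Several lists of immune genes differed between the tissues. Of 12 genes of Langerhans cells, mast cells and epidermal T cells, 8 were called higher in skin and 1, *Cd3e*, higher in small intestine. Without skin replicate 2, the counts were 7 and 2. Over all genes tested, the shares called with all libraries were 29.2% and 28.8%. *Cd207*, a lectin of Langerhans cells, was at 16.99, 37.1 and 13.4 FPKM in skin and 0 in small intestine, at least 490-fold higher. *Cma1*, a chymase of connective tissue mast cells, was at 24.4, 27.7 and 26.5 FPKM in skin and 0.444, 0.141 and 0.115 FPKM in small intestine (log2 fold change 6.28 ± 0.49, edgeR adjusted p = 8.9e-05). *Mcpt1* and *Mcpt2*, the proteases of mucosal mast cells, were high in small intestine instead, *Mcpt1* at 0, 0.285 and 0 FPKM in skin and 122, 41.2 and 20.5 FPKM in small intestine (log2 fold change -9.77 ± 1.32, edgeR adjusted p = 0.00081, and at least 1777-fold higher in small intestine without skin replicate 2) and *Mcpt2* at 0, 0.116 and 0 FPKM in skin and 58.1, 19.3 and 8.93 FPKM in small intestine (log2 fold change -9.96 ± 1.25, edgeR adjusted p = 0.0006, and at least 785-fold higher in small intestine without skin replicate 2). Replicate 7 had the most RNA of both mucosal proteases and also of *Mcpt4* and *Cpa3* among the intestinal libraries. In skin, *Mcpt4* was at 49.8, 55.9 and 48.5 FPKM and *Cpa3* at 25.5, 31.6 and 18.4 FPKM.

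All 10 genes of plasma cells and IgA transport were called, 8 higher in small intestine. *Jchain*, which joins IgA into dimers, was at 0.666, 6.36 and 0.727 FPKM in skin and 725, 475 and 449 FPKM in small intestine (log2 fold change -8.12 ± 1.24, edgeR adjusted p = 0.0014, and log2 fold change -10.15 without skin replicate 2). *Pigr*, the receptor that carries IgA across the epithelium, was at 0.0852, 7.05 and 0.056 FPKM in skin and 1264, 1225 and 1171 FPKM in small intestine (log2 fold change -9.35 ± 2.28, edgeR adjusted p = 0.011, and log2 fold change -14.58 without skin replicate 2). The genes higher in skin were *Sdc1* and *Prdm1*, which keratinocytes also express, and *Prdm1* had an edgeR adjusted p of 0.075 without skin replicate 2. All 101 heavy chain variable segments tested, of 183 in the table, all 88 kappa segments tested, of 162, and all 3 lambda segments were called higher in small intestine. Their summed level was 3494, 2439 and 2194 FPKM for the heavy chain in small intestine and 1.51, 17.9 and 1.94 FPKM in skin. For the kappa chain it was between 4053 and 7584 FPKM in small intestine and at 3.40, 50.5 and 4.22 FPKM in skin. The variable segments are near-identical in sequence and the mm10 reference is of another strain than these BALB/c mice, so the counts of separate segments are uncertain.

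Lymphocyte genes of the gut epithelium were higher in small intestine in 10 of 12 cases, with 0 higher in skin. *Gzma*, a granzyme of cytotoxic lymphocytes, was at 0.396, 1.18 and 1.13 FPKM in skin and 84.2, 48.6 and 103 FPKM in small intestine (log2 fold change -6.91 ± 0.56, edgeR adjusted p = 0.0001). *Cd8a* was at 0.11, 0.209 and 0.134 FPKM in skin and 5.73, 4.31 and 5.42 FPKM in small intestine (log2 fold change -5.54 ± 0.35, edgeR adjusted p = 4.9e-05). *Ccl25*, the chemokine that enterocytes use to recruit lymphocytes with the receptor *Ccr9*, was at 0.967, 5.15 and 0.984 FPKM in skin and 404, 409 and 360.4 FPKM in small intestine (log2 fold change -7.74 ± 0.85, edgeR adjusted p = 0.00034, and log2 fold change -9.0 without skin replicate 2), and *Btnl1*, which maintains intraepithelial lymphocytes, was at 0, 0.769 and 0 FPKM in skin and 85.9, 78.2 and 91.1 FPKM in small intestine (log2 fold change -8.78 ± 1.6, edgeR adjusted p = 0.003, and at least 5152-fold higher in small intestine without skin replicate 2). Of 8 B cell genes tested, 6 were called higher in small intestine. *Ms4a1*, the CD20 antigen, was at 0.0116, 0.0261 and 0 FPKM in skin and 0.101, 0.292 and 1.997 FPKM in small intestine (log2 fold change -6.07 ± 1.48, edgeR adjusted p = 0.011, and log2 fold change -6.98 without skin replicate 2). Replicate 9 had the most *Ms4a1*, *Cr2* and *Pax5*, and *Cr2* was at 0.0303, 0.128 and 0.719 FPKM in the intestinal libraries. *Cd79a*, which plasma cells keep, was more even at 13.3, 7.89 and 11.8 FPKM.

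Macrophage genes were present in both tissues and the complement genes overlapped between them. Of 10, 3 were called higher in skin and 2 higher in small intestine, and 7 and 2 with library size alone as scale. With the main scale, 29.2% and 28.8% of all genes tested were called in these directions. *C1qa* was at 92.8, 70.1 and 63.4 FPKM in skin and 67.2, 46.3 and 45.5 FPKM in small intestine (log2 fold change 0.04 ± 0.22, edgeR adjusted p = 0.9). *Mrc1*, the mannose receptor, was at 37.5, 28.2 and 16.6 FPKM in skin and 1.81, 2.35 and 2.59 FPKM in small intestine (log2 fold change 3.14 ± 0.34, edgeR adjusted p = 0.00031). *Cx3cr1*, the fractalkine receptor, was at 0.757, 1.304 and 0.755 FPKM in skin and 6.81, 4.95 and 4.25 FPKM in small intestine (log2 fold change -2.95 ± 0.34, edgeR adjusted p = 0.00044). *Mrc1*, *Cd163* and *Cd68* did not overlap between tissues in the direction of skin, nor *Cx3cr1* and *Mertk* in the direction of small intestine.

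Eosinophil granule genes, the transcripts of the cell type the study follows, were near the detection limit in both tissues. The study reports many times more eosinophils in small intestine than in skin of wild-type mice. RNA levels of bulk tissue do not count cells. Of 14 genes of eosinophils and eotaxins, 8 were abundant enough to test, 2 were called higher in skin and 2 higher in small intestine, and the latter 2 were not called with library size alone as scale. Over all genes tested, 29.2% were called higher in skin and 28.8% higher in small intestine. *Epx*, eosinophil peroxidase, was at 0, 0 and 0.0125 FPKM in skin and 0.164, 0.0622 and 0 FPKM in small intestine. *Prg2*, the major basic protein, was at 0.0714, 0.259 and 0.0706 FPKM in skin and 0.222, 0.126 and 0.0952 FPKM in small intestine, and *Prg3* had no count. Transcripts of granule proteins are known to decline as eosinophils mature. *Siglecf*, a surface receptor of eosinophils, was at 0.632, 0.239 and 0.306 FPKM in skin and 1.31, 0.617 and 0.521 FPKM in small intestine (log2 fold change -1.54 ± 0.49, edgeR adjusted p = 0.033), and edgeR gave an adjusted p of 0.067 without skin replicate 2. *Ccr3*, the eotaxin receptor, was at 1.03, 0.504 and 0.447 FPKM in skin and 1.51, 1.31 and 0.642 FPKM in small intestine (log2 fold change -1.27 ± 0.44, edgeR adjusted p = 0.042), and 0.082 was its adjusted p without that library. *Ccl11*, eotaxin-1, was at 14.8, 25.1 and 16.9 FPKM in skin and 18.9, 16.1 and 15.99 FPKM in small intestine (log2 fold change -0.29 ± 0.26, edgeR adjusted p = 0.37), and without skin replicate 2 it was called higher in small intestine (log2 fold change -0.63, edgeR adjusted p = 0.015). *Ear2*, a ribonuclease of a family with near-identical copies, was higher in skin at 19.7, 31.96 and 12.9 FPKM in skin and 0.984, 0.681 and 0.844 FPKM in small intestine (log2 fold change 4.21 ± 0.46, edgeR adjusted p = 0.00032). *Sirpa*, an inhibitory receptor that many myeloid cells share, was higher in skin at 28.9, 23.4 and 27.7 FPKM in skin and 5.03, 5.31 and 4.67 FPKM in small intestine (log2 fold change 1.87 ± 0.11, edgeR adjusted p = 4.4e-05).

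Toll-like receptors and their adaptors sense microbial products, and imiquimod is a ligand of TLR7. Of 16 genes, 6 were called higher in skin and 6 higher in small intestine, and the counts were the same with library size alone as scale. Among all genes tested, 29.2% and 28.8% were called in the main comparison. *Tlr7* was at 2.03, 1.46 and 0.99 FPKM in skin and 1.01, 1.001 and 0.746 FPKM in small intestine (log2 fold change 0.24 ± 0.29, edgeR adjusted p = 0.52, 95% confidence interval -0.45 to 0.92). *Tlr9*, which shares its compartment, was at 1.05, 1.61 and 0.748 FPKM in skin and 1.04, 0.751 and 0.914 FPKM in small intestine (log2 fold change -0.12 ± 0.37, edgeR adjusted p = 0.81). Both overlapped between the tissues. *Tlr5*, the flagellin receptor, was higher in skin at 2.79, 3.38 and 1.54 FPKM in skin and 0.249, 0.237 and 0.249 FPKM in small intestine (log2 fold change 2.54 ± 0.39, edgeR adjusted p = 0.0014). *Tlr4*, the endotoxin receptor, was at 2.43, 2.78 and 1.99 FPKM in skin and 0.537, 0.622 and 0.691 FPKM in small intestine (log2 fold change 1.5 ± 0.22, edgeR adjusted p = 0.0013). *Tlr3*, which senses viral RNA, was higher in small intestine at 2.61, 3.25 and 2.58 FPKM in skin and 8.22, 11.3 and 9.96 FPKM in small intestine (log2 fold change -2.27 ± 0.18, edgeR adjusted p = 0.00011). Its adaptor *Ticam1* was at 5.09, 4.39 and 5.16 FPKM in skin and 21.7, 19.99 and 21.6 FPKM in small intestine (log2 fold change -2.59 ± 0.12, edgeR adjusted p = 2.6e-05), and *Irf7*, an interferon regulator downstream of *Tlr7*, was at 6.77, 11.04 and 9.33 FPKM in skin and 51.9, 44.9 and 43.03 FPKM in small intestine (log2 fold change -2.81 ± 0.24, edgeR adjusted p = 0.00014). *Myd88*, the adaptor of most other members, was at 19.4, 19.3 and 17.9 FPKM in skin and 15.3, 15.9 and 14.4 FPKM in small intestine (log2 fold change -0.15 ± 0.12, edgeR adjusted p = 0.31). The calls of *Tlr2* and *Traf6* in skin were not kept without skin replicate 2 (edgeR adjusted p = 0.1 and 0.11).

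Of 17 genes of the IL-17 and IL-23 axis and alarmins in the table, 13 were tested, 4 called higher in skin and 3 higher in small intestine. These counts are near the shares over all genes tested, 29.2% and 28.8%. *Il17a* had no count in skin and was at 0.0579, 0.159 and 0.107 FPKM in small intestine, too low to test. *S100a9*, a calprotectin subunit, was at 5.64, 6.78 and 6.47 FPKM in skin and 0.468, 0.0706 and 0.4004 FPKM in small intestine (log2 fold change 3.78 ± 0.57, edgeR adjusted p = 0.0013). *Tslp*, an epithelial alarmin, was at 2.89, 2.2 and 1.72 FPKM in skin and 0.347, 0.203 and 0.338 FPKM in small intestine (log2 fold change 2.40 ± 0.36, edgeR adjusted p = 0.0013), and *Il1b* was at 4.11, 5.84 and 3.65 FPKM in skin and 4.22, 3.12 and 2.52 FPKM in small intestine (log2 fold change 0.03 ± 0.30, edgeR adjusted p = 0.94).

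A smaller set of genes stood at similar levels in both tissues. The 95% confidence interval of the log2 fold change lay between -0.5 and 0.5 for 1385 genes (6.96% of those tested). Among the 10 most abundant were *Rpl10*, *Rpl28*, *Rps29*, *Rpl38*, *Rpl18*, *Ddx5*, *Btf3* and *Rpl36al*. Of 82 ribosomal protein genes tested, 16 lay within this interval and 19 were called different between the tissues. *Rpl10* was at 794, 783 and 902 FPKM in skin and 569.6, 627 and 526 FPKM in small intestine (log2 fold change 0.06 ± 0.17, edgeR adjusted p = 0.8). The FPKM of such genes was higher in skin while their normalized counts were alike, since the normalization factors were 1.09 to 1.24 for skin libraries and 0.807 to 0.907 for intestinal libraries. Of 12 genes in common use as references, 3 were called higher in small intestine, namely *Actb*, *Pgk1* and *Sdha*, and *Rpl13a* was called higher in skin. With library size alone as scale, 2 were called higher in small intestine and 3 higher in skin. *Actb* was at 671, 539 and 909.9 FPKM in skin and 1229, 1325 and 1489 FPKM in small intestine (log2 fold change -1.42 ± 0.27, edgeR adjusted p = 0.004). *Gapdh* was at 253, 279 and 261 FPKM in skin and 261, 155 and 234 FPKM in small intestine (log2 fold change -0.19 ± 0.26, edgeR adjusted p = 0.57).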

How the data were processed

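RNA of 6 vehicle libraries (3 skin, 3 small intestine) was analysed from 1 deposited table of 45777 genes. Per the labels and the methods, the authors trimmed the reads, aligned them to mm10 with HISAT2 2.1.0 and quantified genes with StringTie 2.1.3b. The tool that made whole counts, strand handling and the treatment of reads that match several genes are not given in the sources used here, so near-identical, overlapping and antisense genes are uncertain. The deposited read counts, which the authors did not normalize, were used for every test. FPKM values computed by the authors were used for levels. TPM values, also deposited by the authors, were not used. No column was left without a sample (0 columns).

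Genes were kept by the filterByExpr rule by tissue (minimum count 10), scaled by relative log expression and tested with edgeR 4.0.16 (R 4.3.3) by the quasi-likelihood test with tissue as the factor, and p-values were adjusted by the Benjamini-Hochberg method over all 19888 genes tested. DESeq2 1.42.0 and limma 3.58.1 served as alternatives, and the script was tested on simulated counts. A gene with no count in 1 tissue was given a lower bound against a floor of 3 counts per library, which covers counting error only. Depth was 45681955 to 58526384 counts per library, and replicates differed by far more than counting noise. Gene positions and promoter windows came from RefSeq GRCm38.p6, which matched 45679 of the genes. The 40 gene lists and the Hox genes were chosen, as was the comparison, with earlier results of these data known. Genes were named by these rules: the 10 called genes of highest mean FPKM in each tissue at 4-fold or more, the 10 of largest fold with at least 1000 counts in every library of the higher tissue, in each list the members called against the majority and up to 4 of highest FPKM, all Toll-like receptor, eosinophil, tight junction, fatty acid-binding and Hox genes, and the 10 most abundant genes within 0.5 of no change. Some genes that these rules name are not reported here. Other genes named, the motifs and the promoters shown were chosen after their values were seen.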

Additional observations from a re-analysis of the deposited data

How the results depend on the processing

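The 11550 calls became 9849 to 12103 on leaving out single libraries, 5062 to 6091 higher in skin and 4780 to 6012 higher in small intestine, the fewest without skin replicate 1 or small intestine replicate 9. Other alternatives gave 8586 calls (at 2-fold or more) to 13010 (1 fit of all 11 libraries). With library size only, limma on log2(FPKM + 0.01) and limma on log2(FPKM + 1), 8946, 8905 and 8859 genes were called higher in skin and 3875, 3969 and 3945 higher in small intestine. No paired analysis was possible because the skin and small intestine libraries share no replicate number. Intestinal RNA in skin replicate 2 was 0.709%, 0.905% by FPKM and 0.863% over genes of at least 200 FPKM.

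The alternatives were followed for 112 of the genes named. The log2 fold change of 13 of them turned under at least 1 alternative. These were within 0.5 of 0 in the comparison as reported, and none of them was called there, but *Myd88* was called higher in skin with both limma fits on FPKM (adjusted p = 0.039). With library size only, the direction turned for *Ccl11* (0.16), *Gapdh* (0.29), *Hoxa4* (0.42), *Itga6* (0.0007), *Lipe* (0.35), *Myd88* (0.31), *Tlr9* (0.34). With limma on log2(FPKM + 0.01), the direction turned for *Ccl11* (0.12), *Gapdh* (0.32), *Hoxa4* (0.49), *Itga6* (0.0018), *Lipe* (0.31), *Myd88* (0.31), *Tlr9* (0.27). With limma on log2(FPKM + 1), the direction turned for *Ccl11* (0.12), *Gapdh* (0.32), *Hoxa4* (0.21), *Itga6* (0.0009), *Lipe* (0.30), *Myd88* (0.29), *Tlr9* (0.15). With TMM normalization, the direction turned for *Hoxa4* (0.0765), *Lipe* (0.0032). With upper-quartile normalization, the direction turned for *Hoxa4* (0.10), *Lipe* (0.0334), *Tlr9* (0.0214). With limma-voom, the direction turned for *Hoxa4* (0.0439), *Mki67* (-0.0294). Leaving out 1 library at a time turned the direction of *C1qa* (-0.0987 to 0.24), *Cldn4* (-0.27 to 1.35), *Hoxa4* (-0.33 to 0.15), *Il1b* (-0.25 to 0.26), *Lipe* (-0.40 to 0.10), *Mki67* (-0.11 to 0.41), *Pnpla2* (-0.0647 to 0.32), *Tlr7* (-0.0047 to 0.49), *Tlr9* (-0.54 to 0.15). Levels under 0.1 FPKM rest on few counts.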

Other observations

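Other blocks of neighbouring genes stood out by tissue in windows of 1 Mb (mm10). Of 26 tested genes that start between chr15:101000001-102000000, 14 were called at least 16-fold higher in skin, among them the type II keratin genes *Krt1*, Krt2, *Krt5* and *Krt71*. Between chr11:100000001-101000000, with the type I keratin genes *Krt14* and *Krt15*, it was 10 of 34. Between chr7:43000001-44000000, with the kallikrein proteases *Klk5* and *Klk7*, it was 10 of 27. Between chr4:60000001-61000000, all 9 tested genes were major urinary protein genes at least 16-fold higher in skin. *Mup9* was at 346, 597 and 279 FPKM in skin and had no count in small intestine, at least 5083-fold higher, but reads of this family may be divided among near-identical copies. In small intestine the largest such blocks were immunoglobulin loci, with 49 of 49 tested genes between chr12:114000001-115000000 and 32 of 35 between chr6:70000001-71000000.

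Of 2015 long noncoding RNA genes tested, 633 were called higher in skin and 466 higher in small intestine. Of 16117 protein-coding genes tested, the counts were 5013 and 4780, and of 1141 pseudogenes 102 and 199. The shares called in either direction were 54.5%, 60.8% and 26.4%, against 58.1% of all genes tested. *Dio1*, an enzyme that activates thyroid hormone, had no count in skin and was at 18.9, 17.8 and 10.2 FPKM in small intestine, at least 673-fold higher there. *Nags*, which makes the activator of the urea cycle's first enzyme, was at 0, 0.0833 and 0 FPKM in skin and 22.9, 25.2 and 21.5 FPKM in small intestine (log2 fold change -10.07 ± 0.81, edgeR adjusted p = 0.0001, and at least 1377-fold higher in small intestine without skin replicate 2). *Muc4*, a membrane mucin, was at 0, 0 and 0.003 FPKM in skin and 2.69, 2.01 and 1.82 FPKM in small intestine.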
